A study of Mus musculus with 10 samples.

Results

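Sox2, Prox1, Lgr5 and Cdkn1b are regulators of the prosensory cells of the inner ear and of the supporting cells that form from them. All 4 genes were found by symbol among the 15472 genes of the deposited expression table, each in 1 row. None of them passed the test between the genotypes. The largest difference was in Lgr5, whose mean level was 1.16-fold higher in mutant ears with overlapping libraries, and the lowest Lgr5 and Prox1 levels both fell in the same wild-type library.

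The libraries came from whole inner ears of C57BL/6 mouse embryos at E16.5 (a stage in embryonic days), profiled by RNA sequencing of total RNA. There were 5 wild-type (WT) libraries and 5 from embryos homozygous for the nmf219 allele of Tbx1, labelled nmf219/nmf219 and called nmf219 here; no other allele or agent was named for either group. Tbx1, which encodes a factor of the T-box family, takes part in patterning the ear vesicle and the pharyngeal region. The labels name no promoter or conditional allele that would limit the mutation to a tissue, and they do not say how many ears or embryos went into a library. The p-values therefore measure the spread between these libraries.

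The libraries held between 31244799 and 41875972 reads in the listed genes. Tbx1 itself ranged between 20.7 and 29.3 among WT libraries and between 23.0 and 28.1 among nmf219 libraries, so its RNA level did not separate the groups, and it does not check the labels of an allele whose effect on RNA the labels do not give. Of 16 genes typical of the inner ear, 14 were listed, and Otos and Pax8 were not. Nearly every listed gene reached a value of 1 in 2 or more libraries (15469 of 15472), so having reads does not check the tissue. The ear genes Oc90 and Otor had mean values of 1170 and 379. Y-linked genes reached a value of 1 in WT replicates 3, 4 and 5, while the other 7 libraries had values near that of a few reads or 0. All 12 listed genes of fast and embryonic skeletal muscle had a higher mean in nmf219, with a median log2 fold change of 1.77. By limma, 10 of them had an unadjusted p under 0.05, against 7.11% of all genes, and 0 were called at an adjusted p under 0.05. The summed level of all 12 lay between 106 and 1868 among WT libraries and between 740.0 and 3193 among nmf219 libraries. In this overlap WT replicate 3 exceeded 4 nmf219 libraries. The part of embryo sex and of muscle in the differences below was not tested beyond a few fits. These carry each as a covariate or, for sex, leave out the libraries with Y-linked RNA.

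In the developing cochlea and vestibular organs a patch of epithelium first becomes prosensory, leaves the cell cycle, and then divides its cells between mechanosensory hair cells and the supporting cells around them. Sox2, an HMG-box transcription factor, is needed for the prosensory patch to form, and later stays on in supporting cells. Cdkn1b encodes p27Kip1, an inhibitor of cyclin-dependent kinases that stops prosensory cells from dividing and keeps supporting cells out of the cycle. Lgr5, a receptor for R-spondins that strengthens Wnt signalling, marks a group of supporting cells from which new hair cells can arise in the newborn mouse. Prox1 is a homeobox transcription factor found in differentiating supporting cells of the cochlea, and also in lymphatic endothelium, neurons and slow muscle. In whole-ear RNA, fewer cells of a type and less RNA per cell cannot be told apart.

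The table places Sox2 (ENSMUSG00000074637) on chromosome 3 from 34650405 to 34652461 on the plus strand, and Prox1 (ENSMUSG00000010175) on chromosome 1 from 190118035 to 190170714 on the minus strand. Lgr5 (ENSMUSG00000020140) lies on chromosome 10 from 115450311 to 115587780 on the minus strand, and Cdkn1b (ENSMUSG00000003031) on chromosome 6 from 134920401 to 134925513 on the plus strand. These positions equal those of the GENCODE M21 gene models on the mouse build GRCm38. The long RNA Sox2ot overlaps Sox2 on the same strand, Prox1os and Gm28172 lie antisense to Prox1, and A930009A15Rik lies on the opposite strand within Lgr5. None of these 4 models has a row in the table, and the strand setting of the counting is not given in the sources used here, so reads from them could not be told apart from reads of Sox2, Prox1 or Lgr5.

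Because the mutated gene encodes a T-box factor, the 250 bases before the RefSeq start sites were searched on both strands. The search used the T-box motif AGGTGTGA and the core AGGTGT that lies within it. A longer T-box sequence was not searched for. The core was chosen after the windows were seen. RefSeq promoter sequences on GRCm38.p6 were at hand for Sox2 (1 window), Prox1 (2 windows) and Cdkn1b (1 window). The motif AGGTGTGA was in none of them. The core was in the Cdkn1b window alone, as ACACCT read on the plus strand, 187 bases before the start. That window, chr6:134920151-134920400 on the plus strand, is printed because it is the one with a match, which stands in capitals:
Cdkn1b upstream: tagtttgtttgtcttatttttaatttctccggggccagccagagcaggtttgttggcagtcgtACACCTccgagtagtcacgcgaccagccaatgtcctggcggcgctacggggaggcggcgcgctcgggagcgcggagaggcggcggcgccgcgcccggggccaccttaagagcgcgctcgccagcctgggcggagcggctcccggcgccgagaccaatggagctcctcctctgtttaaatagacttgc
Across all 32851 windows of the table, 11.8% held the core in their upstream 250 bases and 1.12% held AGGTGTGA, so a core match is common. Cdkn1b, the gene with the match, differed little between the genotypes (below).

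Levels are given as the authors' normalized values, which are close to CPM; 1 read was worth 0.0239 to 0.0317 of this unit, depending on the library. Fold changes are on the log2 scale of value + 1, nmf219 minus WT, with the standard error from limma, fitted over all 15472 genes. Counts of genes with a higher or lower mean use this same scale. A gene was called at a Benjamini-Hochberg adjusted p under 0.05. By that rule 13 of all genes, 0.0840%, were called, 0.0129% higher and 0.0711% lower in nmf219, and an unadjusted p under 0.05 was found for 7.11% of genes. Of the 4 regulators, 0 were called by limma at the adjusted threshold and 0 had an unadjusted p under 0.05. Non-overlapping libraries between the genotypes occurred in 1.17% of all genes and in 0 of these 4. The mean log2 level was higher in nmf219 for 46.9% of all genes and for 2 of these 4.

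Sox2 stood at 28.7, 30.7, 27.7, 29.5 and 29.9 in WT replicates 1 to 5. In nmf219 replicates 1 to 5 it stood at 26.7, 32.3, 28.9, 27.1 and 30.1. The nmf219 libraries held both the highest and the 2 lowest values, on either side of all WT libraries. The WT mean was 29.3 ± 1.13 and the nmf219 mean 29.0 ± 2.31 (SD, n = 5 each). The log2 fold change was -0.01 with a standard error of 0.05 and a 95% interval from -0.13 to 0.10 (limma adjusted p = 0.951, exact two-sided permutation p = 0.786).

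Cdkn1b stood at 105, 108, 97.3, 103 and 115 in WT replicates 1 to 5. In nmf219 it stood at 101, 109, 109, 101 and 98.8. Both the lowest and the highest library were WT, so every nmf219 value lay inside the WT range. The WT mean was 106 ± 6.70 and the nmf219 mean 104 ± 4.94 (SD, n = 5 each). The log2 fold change was -0.03 with a standard error of 0.05 and a 95% interval from -0.13 to 0.08 (limma adjusted p = 0.890, exact two-sided permutation p = 0.595). The adjacent noncoding RNA gene Lockd begins 3578 bases past the end of Cdkn1b and was looked up after its values were seen. Lockd had a WT mean of 7.49 ± 1.65 and an nmf219 mean of 6.75 ± 0.869 (SD, n = 5 each; log2 fold change -0.12, limma adjusted p = 0.814).

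Lgr5 stood at 46.8, 49.7, 42.3, 32.2 and 54.2 in WT replicates 1 to 5. In nmf219 it stood at 54.4, 52.2, 49.5, 58.0 and 47.9. All 5 nmf219 libraries were above the WT mean, 2 of them were above the highest WT library, and 3 WT libraries were below the lowest nmf219 one. The WT mean was 45.1 ± 8.39 and the nmf219 mean 52.4 ± 4.0 (SD, n = 5 each). The log2 fold change was 0.23 with a standard error of 0.12 and a 95% interval from -0.02 to 0.48, which as a fold runs from 0.985 to 1.40. The unadjusted limma p was 0.0695, the adjusted p 0.684, and the exact two-sided permutation p 0.111 where the smallest possible is 0.00794. In the authors' deposited table Lgr5 has a log2 fold change of 0.219 with a p of 0.0395 and a false discovery rate of 0.546. WT replicate 4 carried much of the difference. Without it the WT mean was 48.3 ± 5.0 (SD, n = 4) and the log2 fold change 0.12 (limma adjusted p = 0.993).

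Prox1 stood at 16.9, 14.3, 15.7, 11.8 and 17.3 in WT replicates 1 to 5. In nmf219 it stood at 17.0, 18.3, 15.9, 17.0 and 14.7. The lowest library was WT replicate 4, as for Lgr5, and the other 9 libraries were mixed between the genotypes. The WT mean was 15.2 ± 2.24 and the nmf219 mean 16.6 ± 1.38 (SD, n = 5 each). The log2 fold change was 0.13 with a standard error of 0.10 and a 95% interval from -0.08 to 0.34 (limma adjusted p = 0.751, exact two-sided permutation p = 0.286). Without WT replicate 4 the WT libraries ran from 14.3 to 17.3 and the log2 fold change was 0.04 (limma adjusted p = 0.994). The summed level of 6 listed lymphatic endothelium genes was likewise lowest in WT replicate 4, at 86.9 against 111 to 123 in the other WT libraries and 112 to 134 in nmf219. Pdpn and Reln weigh most in that sum, with mean values of 55.1 and 22.1 over all libraries, against 13.2 for Lyve1. All 8 slow muscle genes had a higher mean in nmf219, with a median log2 fold change of 0.98. Of these 8, 3 had an unadjusted limma p under 0.05, against 7.11% of all genes, and 0 were called. The largest difference was in the myosin light chain gene Myl2 (1.34), and the myosin heavy chain gene Myh7 had 1.14. Their sum, between 261 and 556 in WT libraries and between 310.4 and 514 in nmf219 libraries, is mostly the calcium pump gene Atp2a2, at 235 and 241 with a log2 fold change of 0.04. The part of these cells in the Prox1 level was not tested.

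**Figure D1:**
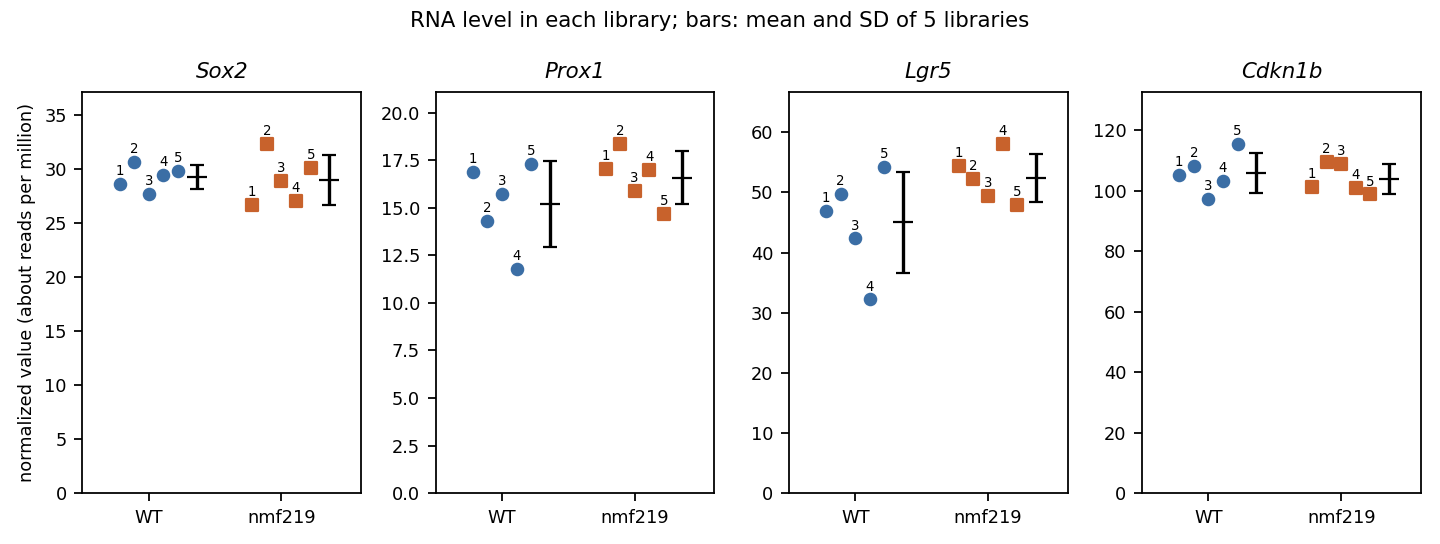
Normalized value (vertical axis, from 0) of each regulator in each library, numbered by replicate, with WT as circles and nmf219 as squares; bars show the mean and SD of 5 libraries. The genotypes overlap for all 4 genes, and WT replicate 4 is the lowest library for Prox1 (11.8) and for Lgr5 (32.2).

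**Figure D2:**
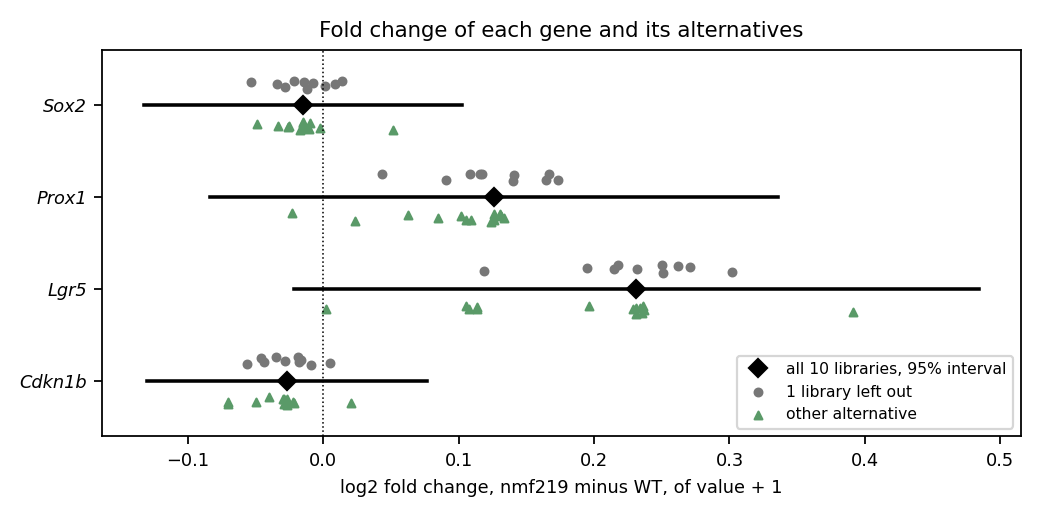
Log2 fold change of value + 1, nmf219 minus WT (horizontal axis), for each regulator. Diamonds and lines are the estimate and 95% interval over 10 libraries, circles leave out 1 library each, and triangles are the other alternatives; every interval over 10 libraries spans 0, and the lowest circles of Lgr5 (0.12) and Prox1 (0.04) are those without WT replicate 4.

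The spread from library to library differed more among the regulators in WT than in nmf219, and these differences were not tested. In WT the coefficient of variation was 3.88% for Sox2, 6.32% for Cdkn1b, 14.8% for Prox1 and 18.6% for Lgr5. In nmf219 it was 7.96% for Sox2, 4.76% for Cdkn1b, 8.34% for Prox1 and 7.63% for Lgr5. Counting error was taken at the fewest reads of each gene in any library. By itself it would give 3.38% for Sox2, 1.81% for Cdkn1b, 4.57% for Prox1 and 2.74% for Lgr5. Reads per library ran from 479 to 758 for Prox1 at the low end and from 3065 to 4523 for Cdkn1b at the high end. Without WT replicate 4 the WT coefficient of variation was 4.46% for Sox2, 7.08% for Cdkn1b, 8.38% for Prox1 and 10.4% for Lgr5 (n = 4). These figures set the whole spread between libraries beside counting error alone.

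Per kilobase of exon the regulators kept 1 order. In WT, Cdkn1b stood at 23.3 ± 1.47 normalized units per kilobase, Sox2 at 14.2 ± 0.552, Lgr5 at 4.39 ± 0.818 and Prox1 at 1.81 ± 0.268 (SD, n = 5 each). In nmf219 these levels per kilobase were 22.8, 14.1, 5.11 and 1.98. Cdkn1b was above Sox2, Sox2 above Lgr5 and Lgr5 above Prox1 in 10 of 10 libraries, so no neighbours in the order overlapped within a library. Among all listed genes with an exon length, 87.9% were below Cdkn1b per kilobase, 77.7% below Sox2, 44.5% below Lgr5 and 23.4% below Prox1. By raw normalized value the order is another one, since Lgr5 has 10264 and Sox2 2057 exonic bases.

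Ratios within a library compare the regulators with each other free of the library's scale. Of the 6 ratios, the log2 ratio of Lgr5 to Cdkn1b differed most, with a WT mean of -1.25 ± 0.24 and an nmf219 mean of -0.99 ± 0.14 (SD, n = 5 each). WT libraries ran from -1.68 to -1.09 and nmf219 libraries from -1.14 to -0.80, so the ranges overlapped. The difference of 0.26 had an exact two-sided permutation p of 0.0238, which became 0.143 after Benjamini-Hochberg adjustment over the 6 ratios and so did not pass. Without WT replicate 4 this difference was 0.16 (exact permutation p = 0.0714). The ratio of Lgr5 to Sox2 differed by 0.25 (exact permutation p = 0.167, adjusted p = 0.333), and that of Cdkn1b to Sox2 by -0.01 (exact permutation p = 0.810).

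Lgr5 and Prox1 moved together across the libraries, as the plot of Prox1 against Lgr5 shows. Over 10 libraries on the log2 scale, Pearson's r was 0.83 (permutation p = 0.0109, adjusted over 6 gene pairs 0.0656) and Spearman's rho 0.70 (permutation p = 0.0311, adjusted 0.187). With each genotype's mean removed, r was 0.80 (permutation p = 0.00712, adjusted 0.0427) and rho 0.59 (permutation p = 0.0816, adjusted 0.365). For deviations, here and below, the permutation moved values across all 10 libraries and made no allowance for the means removed. That can make p too small, so the adjusted 0.0427 cannot decide whether this pair passes. Leaving out the 2 libraries farthest from the median, r was 0.55 for the levels and 0.32 for the deviations, with WT replicate 4 left out both times. Leaving out WT replicate 4 alone, an alternative added after the values were seen, r was 0.47 for the levels and 0.43 for the deviations, with rho at 0.58 and 0.48 (n = 9). Leaving out any other single library, r for the levels stayed between 0.82 and 0.88. Sox2 and Cdkn1b had an r of 0.55 (permutation p = 0.0955, adjusted 0.286) and a rho of 0.53 (permutation p = 0.125, adjusted 0.375). Sox2 had an r of -0.09 with Prox1 and of -0.11 with Lgr5.

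Each regulator was also set against Hbb-y, the embryonic beta-type globin of primitive red cells, which was chosen after its values were seen. The WT values in replicate order were 11.4, 15.8, 20.5, 44.4 and 3.10. Those of nmf219 were 6.15, 4.28, 3.66, 4.15 and 33.0. The highest Hbb-y library of each genotype, WT replicate 4 and nmf219 replicate 5, was also the lowest of its genotype for Lgr5 and for Prox1. Across 10 libraries Lgr5 and Hbb-y had an r of -0.79 (permutation p = 0.00181, adjusted over 8 relations 0.00764) and a rho of -0.72 (permutation p = 0.0234, adjusted 0.0936). Without those 2 libraries, the farthest from the median, the r was -0.77. With genotype means removed r was -0.75 (permutation p = 0.0150, adjusted 0.0560) and rho -0.58 (permutation p = 0.0881, adjusted 0.153), and r was -0.56 without the same libraries. Prox1 and Hbb-y had an r of -0.82 (permutation p = 0.00191, adjusted 0.00764) and a rho of -0.77 (permutation p = 0.0125, adjusted 0.0936). That r was -0.63 without the same libraries, and -0.79 with genotype means removed (permutation p = 0.00755, adjusted 0.0560), where rho was -0.61 (permutation p = 0.0664, adjusted 0.153). Leaving out those libraries as well, it was -0.47.

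Cdkn1b had an r of -0.57 with Hbb-y (permutation p = 0.0905, adjusted 0.145) and a rho of -0.61 (permutation p = 0.0667, adjusted 0.178). With genotype means removed its r was -0.71 (permutation p = 0.0210, adjusted 0.0560) and its rho -0.67 (permutation p = 0.0376, adjusted 0.153), and r was -0.79 without WT replicate 4 and nmf219 replicate 5. With genotype means removed, the relation to Hbb-y did not pass after adjustment for Lgr5, Prox1 or Cdkn1b, and differences between these r values were not tested. Sox2 had an r of 0.09 (permutation p = 0.812, adjusted 0.812). The mean of the muscle list had an r of 0.67 with Prox1 (permutation p = 0.0285, adjusted 0.0761) and 0.58 with Lgr5 (permutation p = 0.0773, adjusted 0.145). Leaving out the 2 libraries farthest in muscle RNA, these were 0.31 and -0.10. The libraries also carry numbers of 2 ranges in their labels, with 5 libraries in each, too few for a correlation within a range. The log2 fold change of Lgr5 was 0.0017 within the range 2162 to 2169 and 0.39 within the range 2199 to 2208, which holds WT replicate 4. With Hbb-y as a covariate the log2 fold change of Lgr5 was 0.11 (limma adjusted p = 0.969), with the muscle list mean 0.11, and with Xist, which follows embryo sex, 0.11. Leaving out the libraries with Y-linked RNA, WT replicate 4 among them, the log2 fold change of Lgr5 was also 0.11 (limma adjusted p = 0.728).

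**Figure D3:**
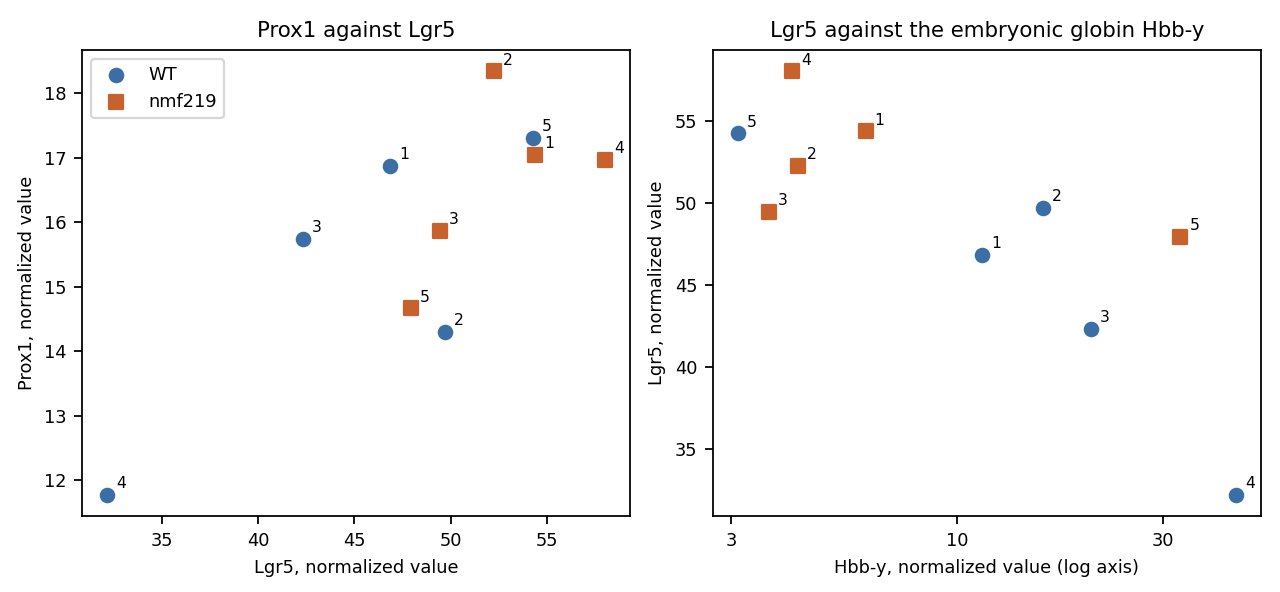
Left, normalized value of Prox1 (vertical) against that of Lgr5 (horizontal); right, Lgr5 against the embryonic globin Hbb-y (logarithmic horizontal axis), 1 point per library, numbered by replicate, WT as circles and nmf219 as squares. WT replicate 4 stands at the low end of Lgr5 (32.2) and Prox1 (11.8) and at the high end of Hbb-y (44.4).

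For each regulator the 3 named genes with the nearest pattern over the 10 libraries, by Pearson's r on log2 values among 15028 genes, were listed as a description. For Prox1 they were Ppfibp2 (r = 0.99), Ndnf (0.98) and Vwa5a (0.97). For Lgr5 they were Plxnb3 (0.96), Parp12 (0.96) and Sipa1l2 (0.95). For Sox2 they were Slitrk6 (0.90), Rnf2 (0.89) and Helz2 (0.89), and for Cdkn1b Zfp30 (0.94), Grip1 (0.92) and Abi2 (0.90). The best of that many genes over 10 points is high by the choice alone, and all points share their library's depth and tissue makeup. Ndnf, the second of the Prox1 list, had a WT mean of 20.3 ± 5.98 and an nmf219 mean of 24.6 ± 2.76 (SD, n = 5 each).

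The genes around the regulators were described by list, with 0 genes called by limma at the adjusted threshold in any list. The median log2 fold change of all genes was -0.0055. Of 18 genes that set up the prosensory patch, 7 had a higher and 11 a lower mean in nmf219, with a median log2 fold change of -0.03. The Notch ligand Jag1, which marks the patch with Sox2, averaged 101 ± 5.31 (WT) and 108 ± 4.85 (nmf219). Its log2 fold change was 0.10 (limma adjusted p = 0.680, and 0.0338 before adjustment over all genes). Lin28b, an RNA-binding protein of progenitor cells and the largest difference of the list, stood at 7.59 ± 1.29 and 6.10 ± 1.10 (-0.28, unadjusted p = 0.0470). The abundant members differed little. The kinase receptor Fgfr1 stood at 301 in WT and 306 in nmf219, the Notch1 receptor at 184 and 188, the transcriptional co-activator Eya1 at 154 and 150.0, and Id3, an inhibitor of basic helix-loop-helix factors, at 136 and 133.

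Of 20 supporting cell genes, 13 had a higher and 7 a lower mean in nmf219, with a median log2 fold change of 0.03. An unadjusted limma p under 0.05 was found for 6 of them, against 7.11% of all genes (adjusted p = 0.680 for each by limma). Libraries without overlap between the genotypes were found for 1 of them, against 1.17% of all genes. The list was not tested as a set. The Notch target Heyl was higher at 35.6 ± 1.33 against 31.9 ± 1.97 with no overlap, and the surface protein Cd44 at 52.8 ± 10.5 against 40.1 ± 10.6 (log2 fold change 0.41). Lower means were found for Fgfr3, the fibroblast growth factor receptor of pillar cell precursors, at 140 ± 12.7 against 177 ± 42.8 (-0.31). The transcription factor Sox9 was lower at 302 ± 18.5 against 348 ± 49.9 (-0.20). Etv4, a target of the Fgfr3 family (-0.24), and Gata2 (-0.13) were also lower. Libraries of the genotypes overlapped for each of these lower genes. Fgfr3 and Sox9 spread more widely in WT than in nmf219, and the part of single WT libraries in their differences was not tested. The most abundant gene of the list, the nuclear receptor Rorb, lay between 2085 and 3149 among WT libraries and between 1927 and 3695 among nmf219 libraries. Epyc and Otog, both encoding extracellular matrix proteins, had log2 fold changes of 0.04 and -0.01.

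Of 24 genes of Lgr5 and Wnt signalling, 23 were listed, with 9 higher and 14 lower means in nmf219 and a median log2 fold change of -0.01. An unadjusted limma p under 0.05 was found for 1 higher and 4 lower genes, against 7.11% of all genes. Libraries without overlap were found for 1 gene, against 1.17% of all genes, and the list was not tested as a set. Among the ligands of Lgr5, Rspo2 had a WT mean of 18.5 ± 0.469 and an nmf219 mean of 21.5 ± 1.48, without overlap (SD, n = 5 each; log2 fold change 0.20, limma unadjusted p = 0.00169, adjusted p = 0.403). Rspo3 stood at 25.5 ± 5.40 and 27.8 ± 2.71, Rspo1 at 0.745 and 0.949, and Rspo4 was not listed. Of the related receptors, Lgr4 stood at 99.4 in both genotypes, and Lgr6 at 5.60 ± 2.02 and 6.39 ± 0.839. The co-receptors Lrp6 and Lrp5 had log2 fold changes of -0.01 and -0.0012, the ligand Wnt5a -0.01, and Ctnnb1, which encodes beta-catenin, -0.07. Unadjusted p-values under 0.05 with lower means were found for Znrf3, a ligase that removes Wnt receptors (log2 fold change -0.09), for the transcription factors Tcf7 (-0.16) and Lef1 (-0.12), and for the feedback inhibitor Nkd1 (-0.11), each with a limma adjusted p of 0.680.

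Of 9 other inhibitors of the G1 kinases and pocket proteins, 7 were listed, 6 with a higher and 1 with a lower mean in nmf219 and 0 with an unadjusted limma p under 0.05. Cdkn1c, which encodes the p27-related inhibitor p57, was the most abundant at 655 ± 22.6 (WT) and 676 ± 37.0 (nmf219; log2 fold change 0.05). The pocket proteins Rb1, Rbl1 and Rbl2 had log2 fold changes of 0.08, -0.08 and 0.12. Of 16 listed cyclins, kinases and turnover factors of p27, 4 had higher and 12 lower means, with 0 under an unadjusted limma p of 0.05 and a median log2 fold change of -0.06. Cyclin genes Ccnd2 and Ccnd1 differed by -0.06 and -0.10, the kinase gene Cdk4 by -0.09, Skp1a by 0.0039, and the cyclin gene Ccna2 most, by -0.16 (WT 100.3 ± 14.0, nmf219 89.2 ± 8.06).

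Hair cell genes, the other fate of prosensory cells, had 13 higher and 1 lower mean among 14 genes and a median log2 fold change of 0.12. Cib2, a calcium-binding protein of the hair bundle, stood at 14.5 ± 1.08 and 16.3 ± 1.23 (log2 fold change 0.16, limma unadjusted p = 0.0282, adjusted p = 0.680). Myo6 and Myo7a, both myosins of hair cells, had log2 fold changes of 0.09 and 0.04, the synaptic protein gene Otof 0.26 and the calmodulin regulator Pcp4 0.21, all with unadjusted p above 0.05. The summed hair cell level was lowest in WT replicate 4, at 233, with up to 343 in other WT libraries and 266 to 335 among nmf219 libraries, so it too was lowest in the library with the least Lgr5 and Prox1.

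**Figure D4:**
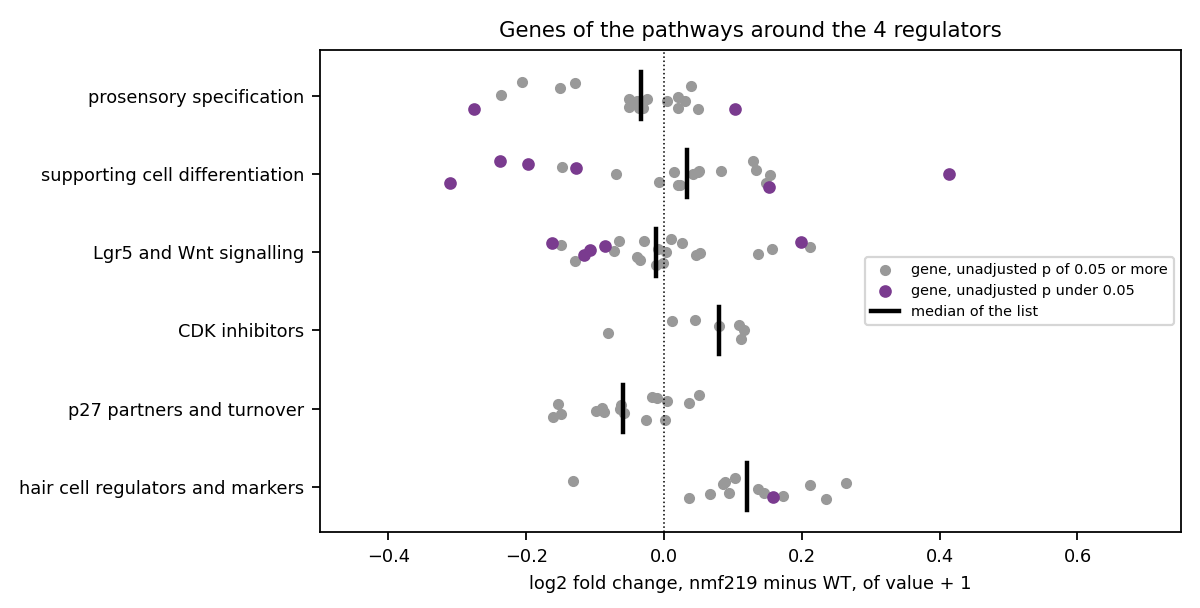
Log2 fold change of value + 1, nmf219 minus WT (horizontal axis), of each listed gene in 6 gene lists around the regulators; purple points have an unadjusted limma p under 0.05 and black bars are list medians. Medians lie between -0.06 and 0.12, and no gene passed the adjusted threshold.

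Other cells of the ear were read from lists of their markers. Of 10 glial genes 8 had a higher mean in nmf219 (median log2 fold change 0.13), with sums between 346 and 400.0 for WT and between 376 and 421 for nmf219. Of 12 ganglion neuron genes 8 were higher (median 0.01), with summed levels of 651 to 798 and 664 to 873. All 6 listed lymphatic genes were higher on the log2 scale (median 0.09). The mean value of Lyve1 was nevertheless 13.3 in WT and 13.1 in nmf219. Of 10 listed brain genes 7 had a lower mean in nmf219 (median -0.07), and their summed level lay between 202 and 209 for WT and between 167 and 189.6 for nmf219, without overlap. Sox2 is also expressed in glia and in brain, and Prox1 in neurons, and the part of those cells in the levels of Sox2 and Prox1 was not tested.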

How the data were processed

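RNA from 10 inner ear libraries, 5 of each genotype, was analysed from the table of normalized counts per gene that the authors deposited. Its library columns, a signal that the authors' column names call counts in CPM, sum to 990643 to 1009220, so the authors' scaling is not a plain division by the total. The aligner, the counter and the build it used are not given in the sources used. The authors also deposited log2 fold changes, p-values, false discovery rates and a signed fold-change score from a test of their own, used for a side-by-side value. Dividing by the smallest step gave whole reads for 100% of values (tolerance 0.01), which gives the read numbers quoted, though a stricter check of the steps accepted only 2 of the 10 columns; counting errors cover counting only, while the intervals of fold changes come from the spread between libraries.

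Values were tested as log2(value + 1) with limma 3.58.1 (trend) in R 4.3.3 over all 15472 genes, with Benjamini-Hochberg adjustment at 0.05 and no further filter, after the script was tested on simulated data. Single values were also tested by exact permutation over libraries (scipy 1.17.1). Groups came from the sample titles. A count model was planned and was not run. Named genes were those past the test, the 4 most abundant and the 1 with the largest change of each list, and the 3 nearest in pattern to each regulator; genes named for an unadjusted p, the remaining R-spondin and receptor genes, Lockd and Hbb-y were chosen after their values were seen. The 4 genes and the lists were chosen with earlier results of these data known. Alternatives covered pseudocount, filter, scaling, replicate block, number range, covariates and leaving out libraries.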

Additional observations from a re-analysis of the deposited data

Results flagged for a closer look

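The log2 ratio of Lgr5 to Cdkn1b was -1.68 in WT replicate 4, far below the other WT libraries: the gap to the nearest of them was 0.81 of the whole WT range, above the critical value for 5 libraries. Of 20 groups tested in this way 1 was past its critical value, and chance gives about 1 in 20. The same library had the lowest Lgr5 and Prox1 levels, the highest Hbb-y level and the lowest sum of fast and embryonic muscle genes of all 10 libraries, and the cause was not tested.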

How the results depend on the processing

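None of the 4 regulators was called under any alternative that was run. Leaving out 1 library at a time, the log2 fold change ran from -0.0534 to 0.0135 for Sox2, from 0.04 to 0.17 for Prox1, from 0.12 to 0.30 for Lgr5 and from -0.0568 to 0.0046 for Cdkn1b. The log2 ratio of Cdkn1b to Sox2 ran from -0.0323 to 0.0202. With the muscle list mean as a covariate, Sox2 was at 0.0515, Prox1 at -0.0229 and Cdkn1b at 0.0204, each of the opposite sign; the cause was not tested. The replicate numbers are not said to pair the libraries. The correlations of same-numbered deviations ran from -0.48 to 0.14, and they cannot by themselves decide whether a litter or processing was shared. With a replicate block the log2 fold change of Lgr5 was 0.23 (limma adjusted p = 0.907), and 2 genes of all were called in place of 13. Over all genes, calls numbered 1 and 2 within the number ranges, 2 with Xist, 4 with muscle, 33 with Hbb-y, and 7 to 18 with 1 library left out. The planned count tests (edgeR, DESeq2 and limma-voom) were not run, because a strict check accepted the recovery of whole reads in only 2 of 10 columns. Prox1 had the fewest reads, 479 to 758 per library, and the largest counting error, 4.57% in the library with its fewest reads. Counting error came closest to the WT coefficient of variation for Sox2, at 3.38% against 3.88%.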
